A study of Homo sapiens with 19 samples.

Results

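The MPO and TSPOAP1 locus is a stretch of human chromosome 17 that holds 4 neighbouring genes: EPX, LPO, MPO and TSPOAP1. They are 4 of the 20033 protein-coding genes of GENCODE release 44. The locus was taken from 20 kb before the start of EPX to 50 kb past the end of TSPOAP1, which is chr17:58172726-58378795 on hg38, a length of 206070 bp. It was chosen by a rule that uses the covered length in all 12 peak lists analysed here, so all values of the 3 marks are a description and none was tested.

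The peaks come from CUT&RUN, in which an antibody-tethered nuclease cuts out the chromatin that carries a mark, in MOLM-13, a human acute myeloid leukaemia cell line. The cells were grown in RPMI1640 with serum and given Corin or the vehicle DMSO for 24 h; Corin is a single molecule that inhibits both LSD1 and the class I histone deacetylases of the CoREST complex. The labels give a dose of 0.1 µM, also for the DMSO libraries, where its meaning is unclear. H3K27ac, H3K4me2 and H3K4me3 were each profiled in 2 DMSO and 2 Corin libraries, 12 in all, and the other 7 libraries of the series were not analysed here. All cells are 1 line, and the labels do not say whether the libraries numbered 1 and 2 came from separate cultures, so a spread between them may be technical.

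MPO encodes myeloperoxidase, the haem enzyme of the azurophil granules of neutrophils and monocytes, which turns chloride and hydrogen peroxide into hypochlorous acid and marks leukaemic blasts of myeloid origin. EPX encodes the related peroxidase of eosinophil granules, and LPO encodes lactoperoxidase, an antimicrobial enzyme of milk, saliva and airway secretions. TSPOAP1 encodes a large adaptor protein that binds the mitochondrial translocator protein TSPO, and beyond its start lies miR-142, a microRNA abundant in blood cells. H3K27ac lies at active promoters and enhancers, H3K4me2, which LSD1 can remove, lies at both, and H3K4me3 lies mostly at promoters.

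In genome order the members are EPX (ENSG00000121053.6, chr17:58192726-58205174, plus strand), LPO (ENSG00000167419.11, chr17:58218548-58268518, plus strand), MPO (ENSG00000005381.9, chr17:58269855-58280935, minus strand) and TSPOAP1 (ENSG00000005379.17, chr17:58301228-58328795, minus strand). MPO and TSPOAP1 are read in the same direction, and 20292 bp separate the MPO start from the TSPOAP1 end. The window also touches MKS1, SUPT4H1, RNF43, a protein-coding gene without a symbol (ENSG00000285897), the antisense RNA gene TSPOAP1-AS1, MIR142HG with MIR142 inside it, MIR4736 and 3 further unnamed long non-coding RNA genes. The miR-142 hairpin (chr17:58331232-58331318) begins 2436 bp beyond the TSPOAP1 start. The transcription start site (TSS) of a gene is that of its Ensembl canonical transcript. For LPO that start (58238584) lies 20036 bp inside the annotated gene, whose outermost first exon overlaps the MKS1 start.

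The 2 mature products of the miR-142 hairpin are shown because the widest peaks of the locus lie over or beside it. Their seeds, bases 2 to 8, are in capitals, and the letters are from RefSeq on GRCh38.p14.
hsa-miR-142-3p: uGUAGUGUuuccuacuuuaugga
hsa-miR-142-5p: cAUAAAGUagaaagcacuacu
No other human mature name in the RefSeq table shares the seed of the 3p product, and 1 other, hsa-miR-5590-3p, shares that of the 5p product. Next are 300 bases around the RefSeq start of MIR142HG (chr17:58332471-58332770, minus strand, GRCh38.p14), which carried H3K4me3 over all 300 bp in all 4 libraries.
MIR142HG promoter: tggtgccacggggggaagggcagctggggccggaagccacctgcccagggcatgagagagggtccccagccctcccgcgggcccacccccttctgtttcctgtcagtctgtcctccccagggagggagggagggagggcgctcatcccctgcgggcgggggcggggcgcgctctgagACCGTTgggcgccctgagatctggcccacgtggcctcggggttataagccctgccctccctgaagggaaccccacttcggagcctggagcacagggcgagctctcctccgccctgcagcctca
The capitals mark the 1 match to the MYB letters AACNGT, here on the opposite strand, which occur in 21.7% of 35116 promoter windows of the same length. This window is 71.3% G and C.

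A further 2 windows, from the hg38 plus strand, stand for results outside the promoters of the members. The first is the middle of the stretch upstream of MPO that all 4 H3K27ac and all 4 H3K4me2 libraries covered (chr17:58283677-58285053, intergenic).
MPO upstream element, chr17:58284215-58284514: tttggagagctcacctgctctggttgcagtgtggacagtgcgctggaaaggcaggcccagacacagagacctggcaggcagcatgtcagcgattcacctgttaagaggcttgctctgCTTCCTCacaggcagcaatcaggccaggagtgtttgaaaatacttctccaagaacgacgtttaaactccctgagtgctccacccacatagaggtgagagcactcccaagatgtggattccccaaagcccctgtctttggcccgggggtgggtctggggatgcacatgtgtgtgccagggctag
The second is the middle of the longest stretch with H3K4me3 in both Corin and in neither DMSO library (chr17:58336297-58337210, an intron of TSPOAP1-AS1). That stretch begins 4979 bp past the miR-142 hairpin and ends 36 bp from the canonical start of TSPOAP1-AS1 (58337246), so it flanks a promoter.
H3K4me3 stretch of Corin, chr17:58336604-58336903: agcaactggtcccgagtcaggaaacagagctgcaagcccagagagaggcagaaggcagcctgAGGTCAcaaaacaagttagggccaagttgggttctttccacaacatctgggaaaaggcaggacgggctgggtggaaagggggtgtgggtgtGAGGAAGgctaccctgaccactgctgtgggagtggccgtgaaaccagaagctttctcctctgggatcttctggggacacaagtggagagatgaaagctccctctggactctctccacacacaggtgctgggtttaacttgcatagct
Capitals mark matches on either strand to the PU.1 letters GAGGAAG and the nuclear receptor half-site letters AGGTCA. The PU.1 letters occur once in each of these windows, and AGGTCA once in the second. Both strands were also searched for TTGCNNAA, the letters taken for C/EBP factors, and for TGTGGT, those taken for RUNX factors. The other searches were for the MYB letters given above, for TGANTCA as the AP-1 site and for AGATAA as the GATA site, and none of these matched in these 2 windows. Over 37408 H3K4me2 regions, 300 bases long at their middle, 15.5% hold the PU.1 letters and 18.0% the AGGTCA letters, so either match is common. As searched, the half-site and the AP-1 letters can share no more than an end base, while other motifs can overlap.

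Peak lists held 17599 to 34424 peaks for H3K27ac, 30896 to 41152 for H3K4me2 and 11104 to 11883 for H3K4me3, and the read depth behind each list is unknown beyond the minimum number of reads that the labels name. The whole lists covered 1.96-fold more bp after Corin for H3K27ac, 1.28-fold for H3K4me2 and 1.06-fold for H3K4me3, which bears on all sums below. Of 8 myeloid marker genes 4, 7 and 6 had a peak within 1 kb of their TSS in all 4 libraries of H3K27ac, H3K4me2 and H3K4me3. Of 8 markers of other blood or tissue types none had an H3K27ac or H3K4me3 peak there in any library, and 2 (COL1A1 and EPCAM) had H3K4me2.

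Every mark covered more bp of the locus after Corin, and the difference in covered bp was largest for H3K27ac, though not as a share of each list. In bulk cells, more cells with a mark and more of it per cell cannot be told apart. H3K27ac peaks covered 20518 and 27675 bp in the DMSO libraries and 44150 and 38962 bp in the Corin libraries. The means were 24096.5 ± 5061 bp (SD, n = 2) and 41556 ± 3668 bp (SD, n = 2), a 1.72-fold difference or 0.79 on the log2 scale with an SD of 0.33. Both Corin libraries lay above both DMSO libraries, and the number of H3K27ac peaks went with it, 23 and 21 in DMSO against 37 in each Corin library. The libraries numbered 1 gave a log2 ratio of 1.11 and those numbered 2 gave 0.49. The share of the list's own bp that fell in the locus was 0.185% and 0.22% in DMSO and 0.169% and 0.194% in Corin, so on that scale the groups overlapped, Corin was lower in both same-numbered pairs, and the log2 ratio was -0.16.

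H3K4me2 covered 25983 and 26898 bp in DMSO and 28852 and 30274 bp in Corin. The difference was 1.12-fold, 0.16 on the log2 scale with an SD of 0.060, smaller than the 1.28-fold of the whole lists. As a share of each list's bp the locus held less after Corin, 0.0609% and 0.0718% against 0.0777% and 0.0736% after DMSO. H3K4me3 covered 12540 and 14865 bp in DMSO and 16306 and 16847 bp in Corin. That was 1.21-fold, 0.27 on the log2 scale with an SD of 0.18, and the share of the list's bp was also higher in both Corin libraries (0.104% and 0.111%) than in both DMSO libraries (0.0882% and 0.0993%). The log2 ratio was 0.16 without DMSO replicate 1. Here the peaks were fewer but wider: 6 in each Corin library against 7 and 8 in DMSO, with a mean width of 2763 bp against 1825 bp.

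Set beside the rest of the genome cut into 14698 tiles of the same length, the locus was among the most covered for each mark. Its mean H3K27ac coverage was reached by 6 tiles, its H3K4me2 coverage by 53 and its H3K4me3 coverage by 46. The difference between Corin and DMSO was as large in 10 tiles for H3K27ac and in 7 for H3K4me3. For H3K4me2 it was as large in 848. The median covered tile differed by 838.5 bp for H3K27ac, 704 bp for H3K4me2 and 88.75 bp for H3K4me3, against 17459.5, 3122.5 and 2874 bp for the locus.

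**Figure D1:**
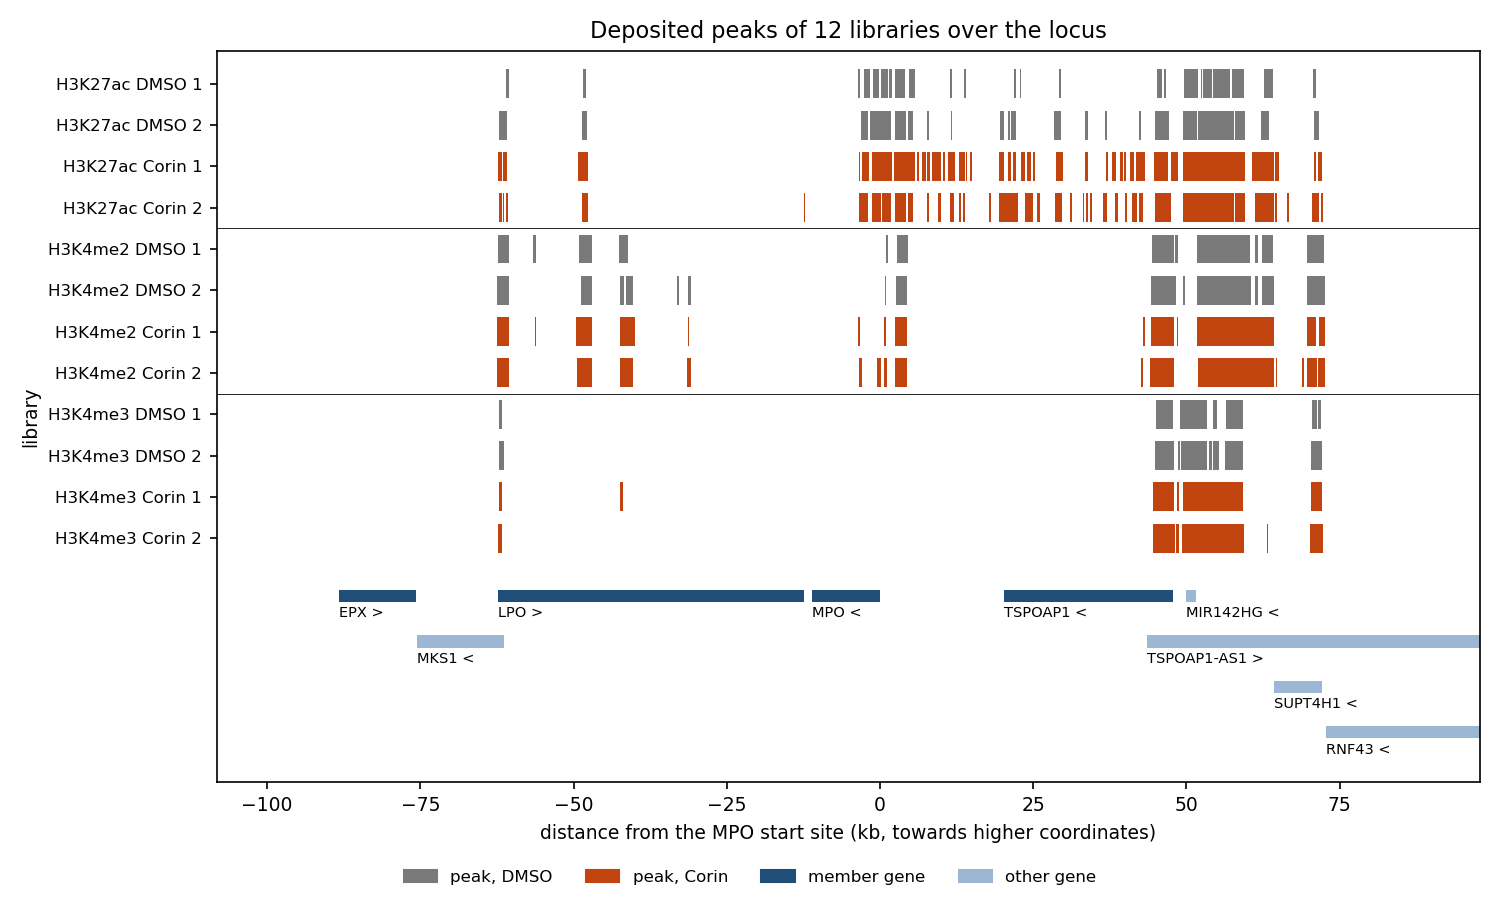
Deposited peaks of the 12 libraries (1 row per library, grey DMSO, red Corin) along the 206070 bp locus, as distance in kb from the MPO start site, with gene bodies below and arrowheads for their direction. No row has a peak over EPX, H3K4me3 has none at MPO, and H3K27ac peaks between MPO and the TSPOAP1 start are more numerous in the Corin rows.

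The covered bp fell into distinct pieces along the locus. The 32449 bp that hold EPX and the flank before it had no peak of any mark in any of the 12 libraries, and the same was true of the next 12580 bp, which hold most of MKS1. The 16379 bp between the TSPOAP1 start and the SUPT4H1 end, in which miR-142 lies, were the most densely covered. H3K27ac covered 61.5% and 67.0% of them in DMSO and 87.9% and 78.9% in Corin. H3K4me2 covered 71.3% and 74.2% in DMSO and 77.9% and 76.1% in Corin. H3K4me3 covered 48.0% and 56.1% in DMSO and 63.7% and 66.7% in Corin. In this piece both Corin libraries lay above both DMSO libraries for all 3 marks. Around the TSS of covered genes of the genome that held for 54.6%, 39.6% and 25.8% in the same order of marks.

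The relative difference in H3K27ac was 1.30-fold in the miR-142 piece and larger in 4 others: the LPO body, the gap between MPO and TSPOAP1, the TSPOAP1 gene, and SUPT4H1 with what lies past it. Across the TSPOAP1 gene H3K27ac covered 1885 and 5214 bp in DMSO and 10932 and 11707 bp in Corin, a 3.19-fold difference of the means that was 6.01-fold without DMSO replicate 2 and 2.17-fold without DMSO replicate 1. In the 20292 bp between MPO and TSPOAP1 it covered 4857 and 5685 bp in DMSO and 11518 and 7655 bp in Corin, which was 1.82-fold. The smaller sums were 498 and 958 bp in DMSO against 1848 and 1864 bp in Corin for SUPT4H1 and past it (2.55-fold), and 595 and 760 bp against 1576 and 935 bp in the LPO body (1.85-fold). In none of these 4 pieces did the groups overlap. Both Corin libraries also lay above both DMSO libraries for 54.6% of covered genes of the genome, so nothing is read from that count. The whole H3K27ac lists differed 1.96-fold, more than the LPO body and the gap between MPO and TSPOAP1. H3K4me2 between MPO and TSPOAP1 covered 2048 and 2110 bp in DMSO and 2046 and 2645 bp in Corin, so its groups overlapped, and H3K4me3 covered none of it in any library.

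**Figure D2:**
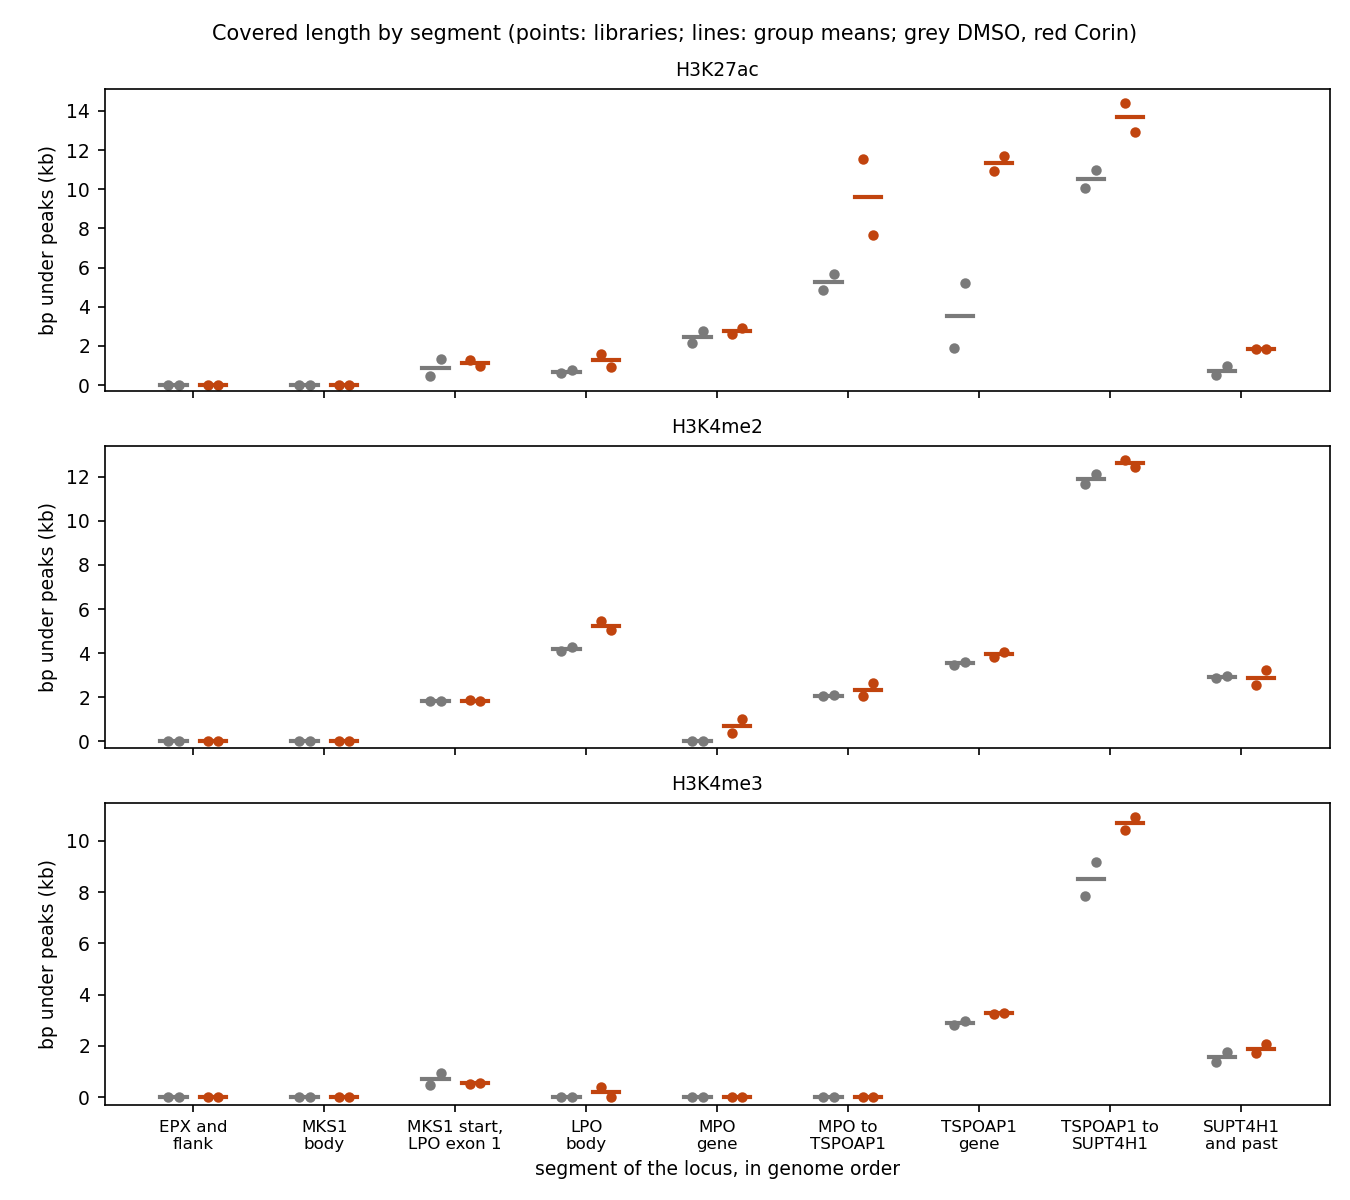
Length under peaks in kb for each of 9 segments of the locus in genome order, in 1 panel per mark. Points are libraries and lines the means of 2; for H3K27ac the Corin points of the TSPOAP1 gene (10932 and 11707 bp) lie above the DMSO points (1885 and 5214 bp), while EPX and the MKS1 body are at 0 for all marks.

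H3K27ac peaks of the 4 libraries merged into 36 regions. Of these, 12 had a peak in all 4 libraries, against 22.8% of the 41575 H3K27ac regions of the genome, and 14 rested on 1 library. Both Corin and neither DMSO library had a peak in 5 regions, 13.9% of the 36, against a genome-wide 11.5%; the opposite pattern occurred in none. Without Corin replicate 1, Corin replicate 2 or DMSO replicate 2 the count was 15, 14 or 10, since fewer libraries then have to carry or lack a peak, and with the number of peaks matched between lists it was 2. The widest of the 5, chr17:58304003-58306238 (2236 bp, overlapping a TSPOAP1 exon), held 1776 and 1194 bp of Corin peaks. Another 2 lay in TSPOAP1, chr17:58318748-58319721 (974 bp, overlapping an exon) and chr17:58320756-58321236 (481 bp, in an intron). Of the rest, chr17:58289471-58290922 (1452 bp) was intergenic, 8536 bp upstream of MPO, and chr17:58345437-58346121 (685 bp) overlapped an exon of SUPT4H1.

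The regions were concentrated in TSPOAP1 and in the gap between it and MPO. In the TSPOAP1 gene the H3K27ac regions with a peak numbered 4 and 6 in DMSO and 10 and 13 in Corin, of 15 in all. Between MPO and TSPOAP1 they numbered 4 in each DMSO library and 10 and 7 in Corin, of 11. By number most H3K27ac regions lay outside the called peaks of the other marks: 24 of the 36 were overlapped by no H3K4me2 peak in any library, and 30 by no H3K4me3 peak. Many of those 24 rested on 1 library, and the genome-wide share of H3K27ac regions without H3K4me2 was not computed. The 24 held 18060 of the 52618 bp that H3K27ac covered in any library.

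H3K4me2 formed 18 regions, 8 in all 4 libraries (44.4%, against 55.6% of the 42421 regions of the genome). A single region was in both Corin and neither DMSO library, 5.56% against 9.64% genome-wide. It lay inside MPO at chr17:58277388-58277939, 2996 bp from the start, overlapping an exon, with 366 and 496 bp of Corin peaks, and the count was 5 without Corin replicate 1 and 2 without Corin replicate 2 or DMSO replicate 2. H3K4me3 formed 6 regions, 4 of them in all 4 libraries (66.7%, against 80.8% of 12089) and none in both Corin libraries only (genome-wide 1.5%). The H3K4me3 differences therefore lay inside regions that all libraries had, apart from 2 regions of 1 Corin library each.

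Read base by base, H3K27ac covered 5765 bp in both Corin and in neither DMSO library, 11.0% of the bases it covered anywhere in the locus, and 0 bp the other way round. H3K4me2 had 2038 bp of the first kind and 413 bp of the second. H3K4me3 had 1788 and 256 bp. The longest stretch of the first kind was 1010 bp for H3K27ac (chr17:58342061-58343070), 639 bp for H3K4me2 (chr17:58341426-58342064) and 914 bp for H3K4me3, whose middle is printed above. All 3 lay in introns of TSPOAP1-AS1, between 4979 and 10743 bp past the miR-142 hairpin. The H3K4me3 stretch ended 36 bp from the canonical start of TSPOAP1-AS1.

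Around the TSS windows, 20001 bp long for each gene, the members ranked differently by mark. For H3K27ac the order of covered bp was TSPOAP1, MPO, LPO and EPX in every library, and neighbours in that order did not overlap within a treatment. For H3K4me2 it was TSPOAP1, LPO, MPO and EPX, again without overlap within a treatment. In H3K4me3 only TSPOAP1 had peaks in all 4 libraries, LPO had them in 1 and MPO and EPX in none. Both Corin libraries lay above both DMSO libraries at 3 of the 4 members for H3K27ac (LPO, MPO and TSPOAP1), against 54.6% of the 10657 covered genes. At LPO the H3K27ac groups overlapped over the gene body and in the window at its outermost exon, and at MPO over the gene body. For H3K4me2 this held at 2 members (LPO and MPO), against 39.6% of 14255, and for H3K4me3 at 1 (TSPOAP1), against 25.8% of 11402. These contrasts also chose the locus, so nothing is read from the counts.

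**Figure D3:**
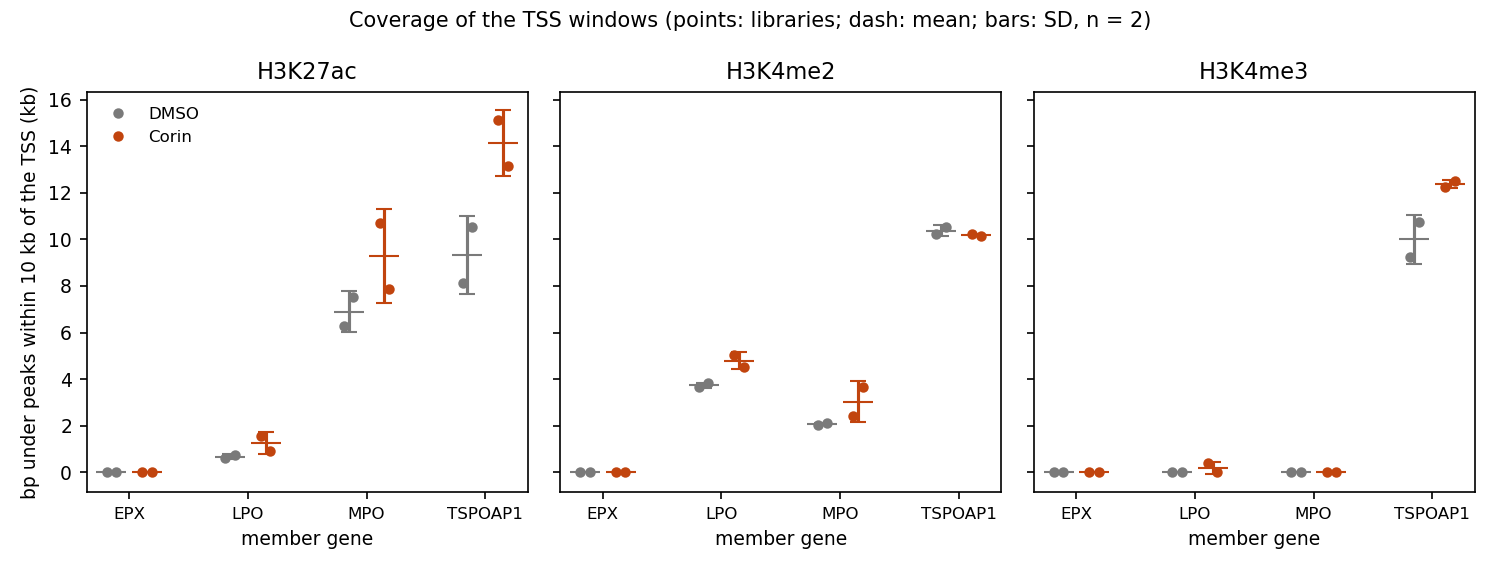
Length under peaks in kb within 10 kb of the TSS of each member, in 1 panel per mark, with points for libraries, dashes for means and bars for the SD (n = 2). TSPOAP1 has the most coverage for every mark, EPX is at 0 throughout, and the TSPOAP1 H3K4me2 points of the treatments overlap (10158 to 10542 bp).

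MPO had H3K27ac and H3K4me2 but no called H3K4me3. H3K27ac within 10 kb of its start covered 6274 and 7508 bp in DMSO and 10706 and 7857 bp in Corin. The means were 6891 ± 873 bp and 9281.5 ± 2015 bp (SD, n = 2), 1.35-fold, and the mean over all 4 libraries placed MPO at rank 56 of 10657 genes. The Corin libraries were both higher, but the lower of them exceeded the higher DMSO library by little, and the difference of 2390.5 bp was 966 bp without Corin replicate 1 and 3815 bp without Corin replicate 2. It was 760.5 bp within 5 kb of the start, 216.5 bp over the gene body and 3598 bp for peaks with a score of at least 100. Within 1 kb of the start H3K27ac covered 1612 and 2001 bp in DMSO and 2001 and 1731 bp in Corin, of 2001 bp, so the promoter was nearly filled in both treatments and the groups overlapped.

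No H3K4me3 peak of any library lay at MPO. The nearest was at 44576 to 44958 bp, at TSPOAP1, in 3 libraries, and at 41962 bp, at LPO, in Corin replicate 1. H3K4me2 within 10 kb covered 2048 and 2110 bp in DMSO and 2412 and 3643 bp in Corin, 1.46-fold between the means; the difference of 948.5 bp was 333 bp without Corin replicate 2, 1564 bp without Corin replicate 1 and 504.5 bp at matched peak numbers. Inside the MPO gene it covered 0 bp in both DMSO libraries and 366 and 998 bp in Corin. Only Corin replicate 2 had an H3K4me2 peak over the start itself (chr17:58280434-58281121), which leaves 1 library behind that base.

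The sequence printed as the MPO upstream element was picked from bases that all H3K27ac and H3K4me2 libraries covered. H3K4me2 there formed a region (chr17:58283396-58285471, 2461 bp from the start) with 1795 and 1797 bp in DMSO and 1846 and 1967 bp in Corin. H3K27ac formed one of 3347 bp (chr17:58283283-58286629), with 2623 and 2602 bp in DMSO and 3344 and 2787 bp in Corin. The scores deposited by the authors for the H3K4me2 peak exceeded 63.5% and 61.7% of the DMSO lists and 85.5% and 85.2% of the Corin lists, ranks in lists of unequal length from which no change is read. The H3K27ac region over the MPO start, chr17:58279323-58282916, held 2450 and 3461 bp in DMSO and 3197 and 2798 bp in Corin, with overlapping groups.

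Over the 12 libraries, the genes outside the locus with the most similar covered bp within 10 kb of the TSS were ATP8B4, SMIM33, PIWIL4, CXorf65 and C10orf105. Likeness was the summed absolute difference, from 13175 bp for ATP8B4 to 18140 bp for C10orf105. ATP8B4 had mean H3K27ac of 6038.5 bp in DMSO and 7071 bp in Corin. Its H3K4me2 means were 3593.5 and 4681.5 bp, and like MPO it had 0 bp of H3K4me3.

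LPO carried H3K4me2 at its canonical start without H3K27ac there. H3K4me2 within 1 kb of the start covered 1192 and 764 bp in DMSO and 1062 and 1027 bp in Corin, while H3K27ac covered 0 bp in all 4 libraries. Within 10 kb H3K4me2 covered 3656 and 3815 bp in DMSO and 5039 and 4523 bp in Corin, 1.28-fold. H3K27ac within 10 kb covered 595 and 760 bp in DMSO and 1576 and 906 bp in Corin. All of that H3K27ac lay in 1 region, chr17:58231675-58233291, whose nearest edge was 5293 to 5567 bp before the start. Its difference of 563.5 bp was 228.5 bp without Corin replicate 1 and 898.5 bp without Corin replicate 2. Within 5 kb of the start it was 0 bp, with a score of at least 100 it was 861 bp, and over the whole annotated gene it was 804.5 bp (1056 and 2085 bp in DMSO, 2851 and 1899 bp in Corin).

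A single H3K4me3 peak of 380 bp, 10 bp past the LPO start, occurred in Corin replicate 1 and in no other library. The outermost LPO exon shares a region with the MKS1 start, MKS1 being a ciliary protein gene. There H3K4me2 covered 1814 and 1830 bp in DMSO and 1855 and 1810 bp in Corin, and H3K4me3 covered 477 and 945 bp against 516 and 558 bp. Taken at that exon, the LPO window differed after Corin by 226.5 bp for H3K27ac, by -109.5 bp for H3K4me2 and by -174 bp for H3K4me3, with overlapping groups for all 3.

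At TSPOAP1 the 3 marks differed from each other in how they related to Corin. H3K27ac within 10 kb of the start covered 8126 and 10512 bp in DMSO and 15131 and 13145 bp in Corin. The means, 9319 ± 1687 bp and 14138 ± 1404 bp (SD, n = 2), differed 1.52-fold, and TSPOAP1 ranked at 24 of 10657 genes by the difference and at 2 by mean coverage. With the number of peaks matched between lists, the difference of 4819 bp was 1960 bp. It was 2844 bp with a score of at least 100 and 2068.5 bp within 5 kb of the start. H3K4me3 covered 9252 and 10745 bp in DMSO and 12261 and 12498 bp in Corin, 1.24-fold. That difference of 2381 bp was the largest of the 11402 protein-coding genes with H3K4me3 nearby. It was 378 bp over the gene body and 423.5 bp within 5 kb of the start, so most of it lay further out than 5 kb. The window also holds the canonical starts of the non-coding genes MIR142HG (58332523) and TSPOAP1-AS1 (58337246), which are not in this ranking. That of TSPOAP1-AS1 lies further out than 5 kb.

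H3K4me2 within 10 kb of the TSPOAP1 start covered 10207 and 10542 bp in DMSO and 10219 and 10158 bp in Corin, with overlapping groups. The difference of -186 bp was -353.5 bp without DMSO replicate 1 and -18.5 bp without DMSO replicate 2, and -562 bp with the number of peaks matched between lists. Within 1 kb of the start, however, it covered 1588 and 1494 bp in DMSO and 1268 and 1070 bp in Corin, with both Corin libraries below both DMSO libraries. In the same 2001 bp H3K4me3 covered 912 and 1357 bp in DMSO and 1513 and 1705 bp in Corin. H3K27ac covered 0 and 217 bp in DMSO and 1104 and 601 bp in Corin. By covered bp the promoter therefore had less H3K4me2 and more of the other marks in the Corin lists. Of the H3K27ac libraries only Corin replicate 1 had a peak over the start itself. The main H3K4me2 peak ended at 58328864 in DMSO replicate 1 and Corin replicate 2 and at 58328863 in Corin replicate 1. In DMSO replicate 2 it reached 58329288. DMSO replicate 1 lay above the Corin libraries only through a separate peak of 518 bp, with a score of 89. The separation of the H3K4me2 groups rests on that peak and was not tested at a stricter score. Across the whole gene H3K4me2 was higher in both Corin libraries, with 3476 and 3593 bp in DMSO and 3837 and 4069 bp in Corin.

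Beyond the TSPOAP1 start, the widest peak of each mark was wider in either Corin library than in either DMSO one. For H3K4me3 the widest peak there measured 4387 and 4167 bp in DMSO and 9918 and 10013 bp in Corin. In their lists these were ranked 103 of 11104 and 125 of 11343 by width in DMSO, and 3 of 11757 and 1 of 11883 in Corin, in which the median peak was 1154 and 1105 bp wide. The Corin peaks ran from chr17:58330287 or 58330312 to 58340299 or 58340229. The merged region chr17:58329258-58340299 was made of 3 and 5 peaks in DMSO and of 2 in each Corin library, and they covered 7859 and 9091 bp in DMSO and 10300 and 10461 bp in Corin. The printed H3K4me3 stretch of Corin lay in one of those gaps; all 4 H3K27ac and all 4 H3K4me2 libraries covered its 300 bases.

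H3K4me2 had a neighbouring wide block, chr17:58332652-58345223, with 11093 and 11346 bp in DMSO and 12543 and 12424 bp in Corin. Its widest peak measured 8678 and 8774 bp in DMSO and 12543 and 12424 bp in Corin. By width these were at rank 14 and 11 in the DMSO lists and at rank 3 and 1 in the Corin lists. For H3K27ac the widest peak measured 2706 and 5821 bp in DMSO and 10190 and 8304 bp in Corin, at ranks 188 and 5 in DMSO and 8 in both Corin lists. In Corin replicate 2 a second peak of 1540 bp completed the H3K27ac block. DMSO replicate 1, whose list was the shortest, had the most broken H3K27ac block. A second H3K27ac region further out, chr17:58341666-58345146 in TSPOAP1-AS1 introns, held 1425 and 1364 bp in DMSO and 3479 and 3086 bp in Corin.

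The marks did not share the same edges around miR-142. H3K27ac and H3K4me3 covered all 87 bp of the hairpin and all 1645 bp of MIR142HG in all 8 of their libraries. H3K4me2 covered 0 bp of either in all 4 of its libraries. Its block began between 58332652 and 58332776, upstream of MIR142HG, within or 6 bp beyond the printed promoter window: 119 of that window's 300 bp carried H3K4me2 in each DMSO library, against 90 and 0 bp in Corin. H3K27ac covered 284 and 113 bp of the window in DMSO and all 300 bp in both Corin libraries.

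**Figure D4:**
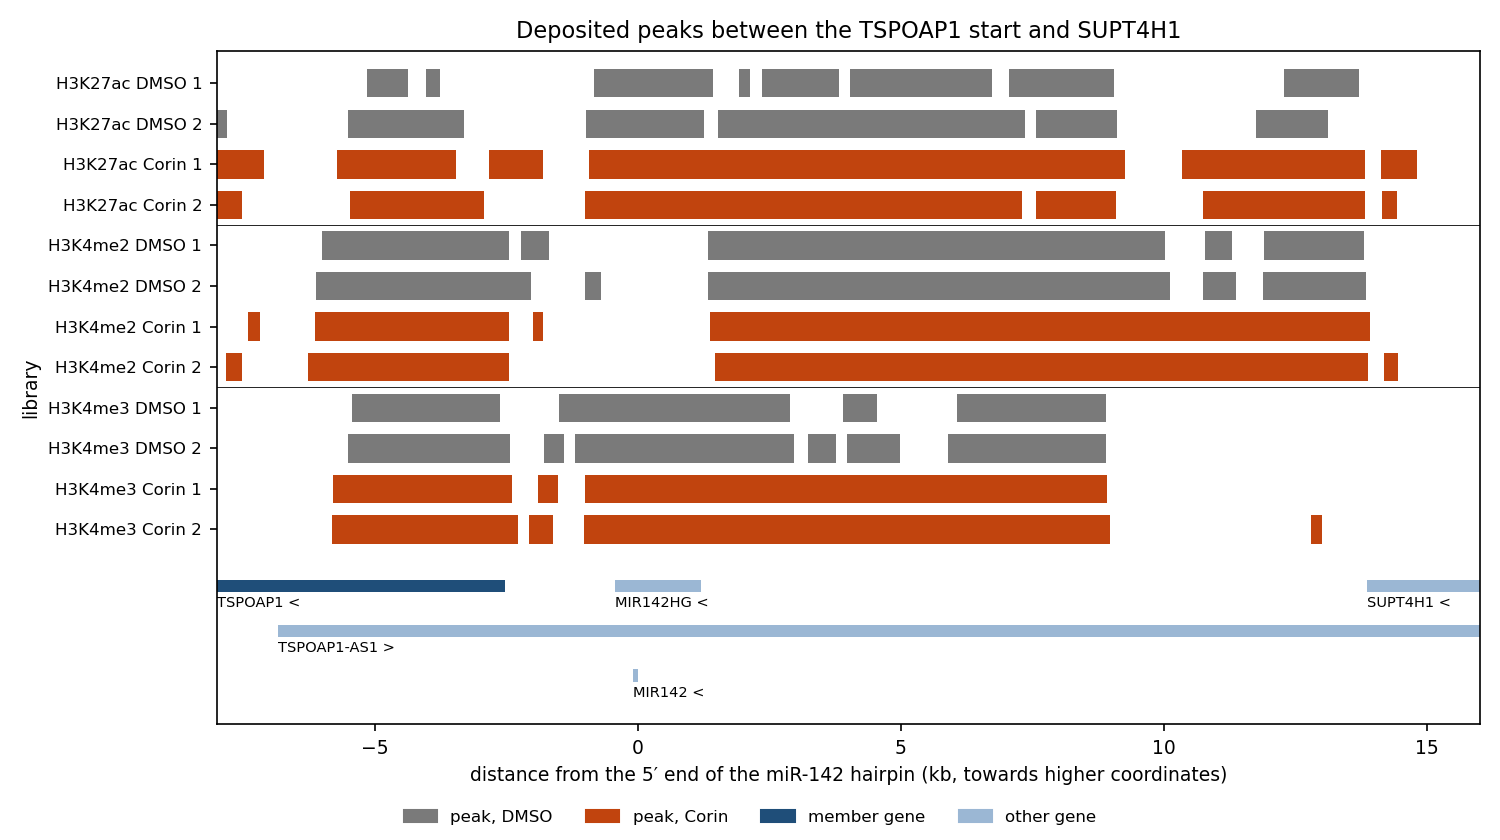
Deposited peaks of the 12 libraries (1 row per library, grey DMSO, red Corin) as distance in kb from the 5′ end of the miR-142 hairpin. The H3K4me3 rows show 1 wide peak of 9918 and 10013 bp in Corin where DMSO has several, and the H3K4me2 rows are empty over MIR142HG in all 4 libraries.

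Around the TSPOAP1 start itself H3K4me3 and H3K4me2 each formed 1 region. H3K4me3 there (chr17:58325511-58329051) held 2814 and 3075 bp in DMSO and 3395 and 3541 bp in Corin. H3K4me2 (chr17:58325049-58329625) held 4063 and 4086 bp in DMSO and 3873 and 3816 bp in Corin. The SUPT4H1 start, that of a transcription elongation factor subunit, had regions of both marks too, with H3K4me3 over 1390 and 1754 bp in DMSO and 1715 and 2080 bp in Corin (chr17:58351084-58353163). H3K4me2 there (chr17:58350594-58353549) held 2870 and 2953 bp in DMSO and 2487 and 2678 bp in Corin.

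Counting only bases covered in both libraries of a treatment, the overlap of the marks differed between treatments. All 3 marks together covered 4961 bp of the locus in DMSO and 10121 bp in Corin. H3K27ac alone covered 4720 bp in DMSO and 12347 bp in Corin. H3K4me2 with H3K4me3 but no H3K27ac went the other way, 4673 bp against 2432 bp. By place, H3K27ac alone made up 557 bp of the TSPOAP1 gene in DMSO and 4820 bp in Corin, and the 3 marks together covered 3563 bp of the TSPOAP1 to SUPT4H1 piece in DMSO and 7206 bp in Corin. These sums have 1 value per treatment and so no spread.

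**Figure D5:**
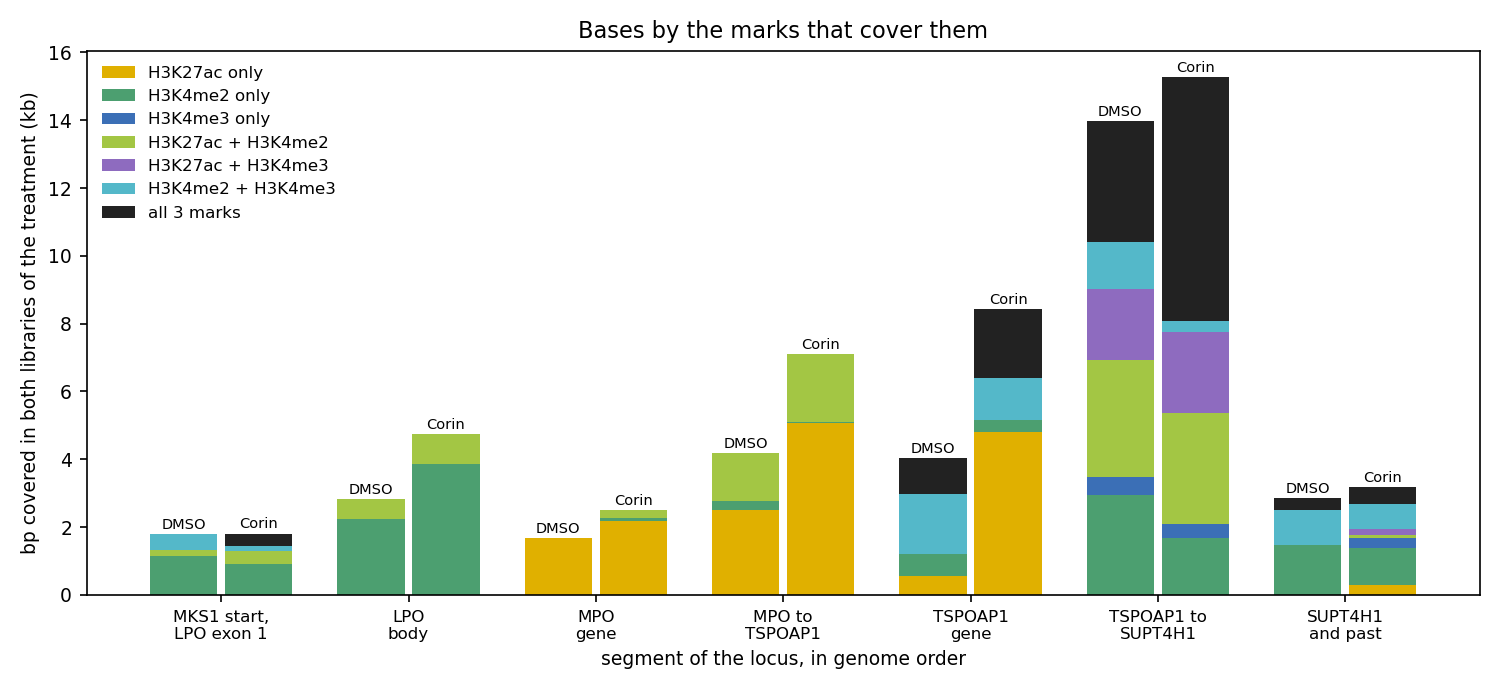
Stacked bars from 0 of the bases in kb that both libraries of a treatment covered, by combination of marks, for 7 segments in genome order with DMSO left and Corin right. The H3K27ac-only share is taller in Corin in the TSPOAP1 gene (557 against 4820 bp), and all 3 marks fill more of the TSPOAP1 to SUPT4H1 piece (3563 against 7206 bp).

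Genes of the same pathways are given by list, each within 10 kb of its TSS; counts and medians leave out the 4 members. A gene is counted where both Corin libraries lay above both DMSO libraries, which held for 54.6% of covered genes of the genome for H3K27ac, 39.6% for H3K4me2 and 25.8% for H3K4me3. Medians of the difference are over the covered genes of a list, beside 445, 230 and 63.5 bp over all covered genes. Among the haem peroxidase genes MPO and LPO had peaks, while EPX, PXDN and PXDNL had none of any mark.

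Of the other azurophil granule genes, 9 of 12 covered genes were counted for H3K27ac, 10 of 12 for H3K4me2 and 5 of 8 for H3K4me3, with median differences of 1136, 915 and 575.25 bp. The best covered in DMSO were the serine protease family neighbours AZU1, PRTN3 and ELANE, whose windows overlap; AZU1 went from 9796 to 12969.5 bp of H3K27ac. In H3K4me3 the list was mixed: AZU1 had a mean of 7084.5 bp in DMSO, while CTSG, BPI, MS4A3 and RNASE3, like MPO, had H3K4me2 and no H3K4me3 peak in any library.

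Of the eosinophil granule genes other than EPX, 2 of 3 covered genes were counted for H3K27ac (PRG2 and RNASE2), 2 of 4 for H3K4me2 (PRG2 and RNASE2) and 0 of 1 for H3K4me3. The medians over covered genes were 870.5, 407.25 and 120.5 bp, and RNASE2 and RNASE3 are also in the azurophil list. Of TSPO and its partners other than TSPOAP1, all 3 covered for each mark, 2, 1 and 1 were counted, with medians of 611.5, 166.5 and 56.5 bp. TSPO itself, the protein that TSPOAP1 binds, had 606 and 753 bp of H3K27ac in DMSO and 2547 and 1656 bp in Corin.

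Of the myeloid transcription factor genes, 6 of 6 covered genes were counted for H3K27ac, 3 of 6 for H3K4me2 and 2 of 5 for H3K4me3, with medians of 2405.25, 281 and 375 bp. GFI1, a repressor that recruits LSD1, lay lower for H3K4me2, with 7061 and 9454 bp in DMSO and 6668 and 7021 bp in Corin. MYB, the progenitor factor whose letters occur in the MIR142HG promoter, had 9358 and 9573 bp of H3K27ac in DMSO and 13870 and 10915 bp in Corin. With so few genes a list, shares near those of the genome are no result about the list.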

How the data were processed

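Peak lists of 12 CUT&RUN libraries were used. Per the submitters' processing notes, Trim Galore, Bowtie2, Picard and MACS2 were used with GRCh38 (hg38); their versions, the control and the calling threshold are not given in the sources used here. Each list gives peak positions and a score deposited by the authors, a whole number of at least 50 whose definition is not stated, which served to order and filter the peaks of each list by itself. There is 1 list per library, so peaks were called per library. Of 292523 peaks 0 ran over the end of an hg38 chromosome. Depth is known only as the labelled minimum of reads, in 150 bp pairs, so no interval was computed.

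Covered bp were summed per library, and the 4 lists of a mark were merged into regions, joined also where peaks touch, with 1 bp of overlap counting as a peak (Python 3.11.15, numpy 2.4.6, pandas 2.3.3). The smallest exact p with 2 libraries against 2 is 0.333, and no test was run. Coverage sums were tested on simulated data. Members and lists were chosen with earlier results of these data known. Named were all members, regions at member promoters, regions of 1 treatment only, the 3 widest per mark, at most 3 genes of each list by DMSO coverage, and the 5 genes most like MPO; other genes of a list and 1 stretch per mark were named after their values were seen. In the haem peroxidase list 1 gene is not reported here. Canonical starts were used once the annotation was at hand. Same-numbered Corin and DMSO libraries deviated together (over 20033 genes the correlations were 0.223, 0.237 and 0.211 for H3K27ac, H3K4me2 and H3K4me3). The values given are unpaired group means and SDs, with the numbers as a block among the alternatives, and no label tells what a number stands for. Alternatives were a score of at least 100, matched peak numbers, shares of list bp, 5 kb windows, gene bodies, no flanks, 50% overlap, a replicate block and each library left out.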

Additional observations from a re-analysis of the deposited data

How the results depend on the processing

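The peak lists hold no reads, so differences in depth between libraries could not be measured, and with 2 libraries a group no alternative adds a test. Higher locus coverage after Corin (log2 0.79, 0.16 and 0.27 for H3K27ac, H3K4me2 and H3K4me3) kept its direction under a stricter score, matched peak numbers, no flanks and the replicate block (0.80, 0.16 and 0.28), and when each library was left out (0.59 to 1.02, 0.13 to 0.20 and 0.16 to 0.40). As a share of each list's bp it was -0.16 for H3K27ac and -0.19 for H3K4me2; the Corin lists are longer. H3K4me2 was 0.088 at matched peak numbers and 0.28 without flanks, and H3K4me3 was 0.15 without flanks; the cause was not tested. Regions in both Corin and no DMSO library numbered 2 for H3K27ac at matched numbers (5 in full), and 6 to 15, 1 to 5 and 0 to 1 for the 3 marks with a library left out. A difference changed sign for LPO at its outermost exon (-109.5 bp of H3K4me2 and -174 bp of H3K4me3, an alternative chosen after seeing the data) and for H3K4me2 across the TSPOAP1 gene body (418.5 bp, against -186 bp around its start). The replicate block changed no direction. Of the alternatives for member windows that could move a value (some spread between replicates, no block, another window), 57 differed by less than that spread, 7 by more and 3 in sign.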

Other observations

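Within the locus the lists did not sort fully by treatment. The Jaccard index, the bp that a pair of lists shares divided by the bp in either, was 0.564 between the H3K27ac lists of DMSO and 0.622 between those of Corin. DMSO replicate 2 shared more with Corin replicate 2 (0.635) than with DMSO replicate 1, which had 0.432 and 0.457 with the Corin lists. For H3K4me3 the index was 0.809 within DMSO and 0.914 within Corin, and DMSO replicate 2 with Corin replicate 1 had 0.822. For H3K4me2 both values within a treatment (0.832 and 0.864) lay above the 4 values between treatments (0.756 to 0.807).

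The stretch of 639 bp with H3K4me2 in both Corin and neither DMSO library, in an intron of TSPOAP1-AS1, joined peaks that were separate in DMSO. In its middle 300 bp H3K27ac covered 229 bp in Corin replicate 1 and 0 bp in the other 3 libraries, and H3K4me3 covered 0 bp in all 4.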
